A study of Mus musculus with 6 samples.

Results

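Of the 3093 transcripts in a deposited table of mouse islet long non-coding RNA, 270 lay outside every gene of the GENCODE M21 annotation but under 5000 bases from the nearest one. They were chosen by position alone: 165 lay upstream of that gene's start and 105 downstream of its end, by the strand of the gene. The other transcripts lay in introns (2054), over coding exons (353), over exons of non-coding genes (193) or at least 5 kb from any gene (223). Coding exons here are all exons of protein-coding genes, with their untranslated parts included. Each transcript is called here by its neighbour, so "the Nudc upstream transcript" is the interval beside Nudc, and the neighbour gene itself was not measured by it. The table gives no strand and no exon structure, so it does not show in which direction a transcript was made, and RNA of the neighbour's own unannotated end cannot be told apart from a separate transcript.

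The islets, the endocrine cell clusters of the pancreas that hold the insulin-secreting beta cells, came from C57BL/6 mice after 8 weeks on normal chow (NCD) or on the diet that the labels call high-fed and abbreviate HFD. The labels name 3 libraries per diet, made from total RNA, and no sex, age or fat content. The table holds 1 value per diet, in FPKM (fragments mapped to a transcript, scaled to its length and to all mapped fragments), so no value below has a replicate error and no difference between diets was tested. The db/db mice of the series' title were not analysed here. The table lists non-coding transcripts, so the islet identity of the samples could not be checked on marker genes, and in whole islets fewer cells of a type and less RNA per cell cannot be told apart.

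Active mammalian promoters, above all those rich in CpG dinucleotides, commonly start RNA in both directions, and the RNA made away from the gene is often short lived. At the other end of a gene, RNA polymerase continues past the cleavage site before it stops, and RNA can extend far beyond the annotated end, for instance under cell stress. Enhancers, alternative first exons, alternative last exons and independent genes also give RNA in such flanks.

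The promoters of 4 neighbours show how the transcripts lie against a gene start. Each line gives the 250 bases before the RefSeq start of the gene on GRCm38.p6, 5′ to 3′ on the gene's strand, so that transcription of the gene begins at the right-hand end. Capitals mark the bases that the listed transcript covers.
Zfyve16, chr13:92530811-92531060, minus strand: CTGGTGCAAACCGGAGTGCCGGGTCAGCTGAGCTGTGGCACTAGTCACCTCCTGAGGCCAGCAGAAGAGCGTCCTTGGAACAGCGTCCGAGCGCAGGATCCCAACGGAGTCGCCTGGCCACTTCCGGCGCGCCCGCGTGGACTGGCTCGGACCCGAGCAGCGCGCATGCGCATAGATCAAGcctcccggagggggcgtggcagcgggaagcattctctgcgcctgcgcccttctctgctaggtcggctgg
Prkrip1, chr5:136198955-136199204, minus strand: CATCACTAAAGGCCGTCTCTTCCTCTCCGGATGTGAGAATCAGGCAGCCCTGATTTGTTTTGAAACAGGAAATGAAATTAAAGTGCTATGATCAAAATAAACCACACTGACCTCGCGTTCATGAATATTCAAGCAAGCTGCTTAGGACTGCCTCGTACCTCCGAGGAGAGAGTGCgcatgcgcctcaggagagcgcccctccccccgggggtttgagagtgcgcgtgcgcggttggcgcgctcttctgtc
Nudc, chr4:133546028-133546277, minus strand: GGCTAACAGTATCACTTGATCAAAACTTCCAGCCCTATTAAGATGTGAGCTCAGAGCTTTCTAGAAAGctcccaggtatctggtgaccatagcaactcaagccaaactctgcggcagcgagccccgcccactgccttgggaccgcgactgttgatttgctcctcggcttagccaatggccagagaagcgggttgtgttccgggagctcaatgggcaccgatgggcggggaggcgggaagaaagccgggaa
Sdf2l1, chr16:17132384-17132633, minus strand: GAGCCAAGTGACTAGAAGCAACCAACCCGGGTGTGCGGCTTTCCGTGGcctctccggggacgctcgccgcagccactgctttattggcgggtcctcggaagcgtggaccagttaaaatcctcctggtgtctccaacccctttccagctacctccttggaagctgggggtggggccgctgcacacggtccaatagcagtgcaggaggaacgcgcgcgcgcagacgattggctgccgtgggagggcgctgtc
The Zfyve16 and Prkrip1 transcripts covered 181 and 175 of the 250 bases, and the Nudc and Sdf2l1 transcripts covered the outermost 68 and 48. Zfyve16 encodes an endosomal adaptor of growth factor signalling, Prkrip1 a spliceosome-associated protein, Nudc a dynein-associated chaperone and Sdf2l1 a cofactor of protein folding in the endoplasmic reticulum. The Zfyve16 transcript began 12 bases from the GENCODE start and was among the 3 nearest of the upstream flank. Prkrip1 and Nudc were among the highest and lowest ratios of HFD over NCD, and Sdf2l1 came from a stress gene list. GC content was 67.6% in the Zfyve16 window, 64.0% in Sdf2l1, 56.4% in Nudc and 53.6% in Prkrip1. The Nudc window held GGGCGG, the core of the GC box bound by Sp1-type factors, and CCAAT, and the Sdf2l1 window held CCAAT.

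Upstream of microRNA genes lay 3 transcripts. The mature microRNAs are shown because they are what those neighbours produce. Capitals mark the seed, bases 2 to 8, that pairs with target RNAs.
mmu-miR-222-3p: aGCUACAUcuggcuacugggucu
mmu-miR-34a-5p: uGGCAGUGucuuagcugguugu
mmu-miR-148a-3p: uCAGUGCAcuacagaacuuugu
The 3 seeds differ from one another. These microRNAs were not measured in the table.

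The upstream and downstream flanks held their transcripts at different distances. Upstream, 104 of 165 transcripts (63.0%) lay under 1000 bases from the gene start, 54 under 250 bases and 29 under 100 bases. Downstream, 16 of 105 (15.2%) lay under 1000 bases from the gene end, 5 under 250 bases and 3 under 100 bases. The median distance was 526 bases upstream and 2688 bases downstream. The upstream transcripts were thus crowded at the start, and the downstream ones were sparse next to the end.

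The downstream distribution had a step at 2000 bases. Its 500-base bins held 11, 5, 2 and 4 transcripts up to that distance, then 22, 19, 15, 11, 10 and 6. In all, 83 of 105 downstream transcripts (79.0%) lay 2000 bases or more from the gene, against 39 of 165 upstream (23.6%). The upstream bins held 80, 24, 11, 11, 12, 6, 9, 3, 5 and 4 and showed no step there. How the authors chose the transcripts to deposit is not given in the sources used here, and its part in the step was not tested.

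**Figure D1:**
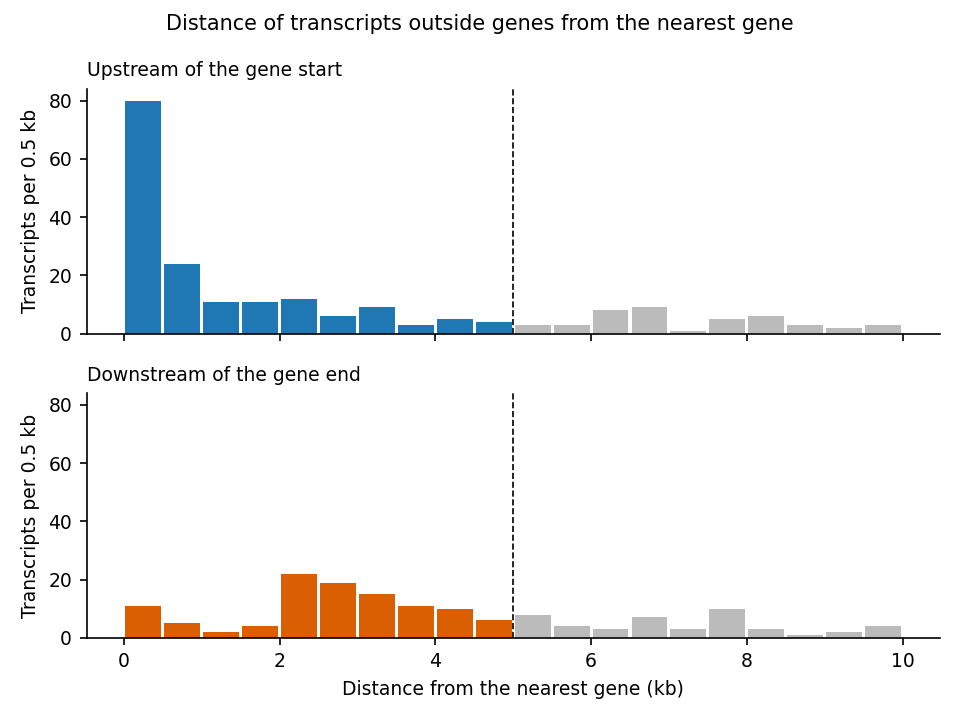
Number of transcripts (y axis) by distance in bases from the nearest gene (x axis, 500-base bins), for the upstream and the downstream flank. The first upstream bin holds 80 transcripts, and the downstream bins go from 4 to 22 at 2000 bases.

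The 3 nearest upstream transcripts came within 12 bases of a gene start. The Bmpr2 transcript (chr1:59761996-59763391) lay 9 bases from the start of this receptor of bone morphogenetic proteins, at 1.92 FPKM in NCD against 1.64 in HFD. The Zfp119a transcript (chr17:55878941-55879442), beside a zinc finger gene, lay at 11 bases, with 2.78 FPKM in NCD and 1.17 in HFD. The Zfyve16 transcript (chr13:92530880-92531945) had 1.97 and 1.49 FPKM. All 3 were lower in HFD, by log2 ratios of -0.21, -1.19 and -0.38, as were 190 of the 270 and 80.0% of the table. Only the Zfp119a ratio lay below the median of the table, -0.82.

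The 3 nearest downstream transcripts were those of Nrp1, Actb and Pianp. The Nrp1 transcript (chr8:128503425-128507936), 62 bases past this co-receptor of semaphorins and vascular growth factors, had 10.8 FPKM in NCD and 9.72 in HFD. It also overlapped the RefSeq model of Nrp1, which ends farther out than the GENCODE one. The Actb transcript (chr5:142896072-142903027) filled the 6956 bases that begin 88 bases past the beta-actin gene and stop 651 bases from Fbxl18, with 7.82 FPKM in NCD against 1.91 in HFD (log2 ratio -1.98). It overlapped the RefSeq model of Fbxl18, an F-box gene, and a second RefSeq gene. The Pianp transcript, 257 bases long at 99 bases, had 14.8 FPKM in NCD and was listed at 0 in HFD. The number of fragments behind a value was not estimated for spans under 300 bases, so the size of this difference is uncertain.

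At the far limit, the Gm13655 upstream transcript was the last one included, at 4998 bases, with 1.51 FPKM in NCD and 0.752 in HFD. The first one left out lay 5011 bases downstream of AC127256.2, with 0.338 and 1.02 FPKM.

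Gene starts with an upstream transcript close by were rich in GC and CpG. RefSeq gave a promoter for the neighbours of 161 transcripts, and in 141 of these its start lay within 500 bases of the GENCODE start, which are the ones described. For protein-coding neighbours with a transcript under 1000 bases upstream (63 windows), the median GC content was 64.0% and the median ratio of observed to expected CpG was 0.84. Over all 20150 windows of protein-coding genes these medians were 56.0% and 0.55. Where the upstream transcript lay 1000 bases or more away (24 windows) they were 55.4% and 0.67, and for downstream neighbours (47 windows) 58.8% and 0.74.

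Short motifs were counted on both strands of the same 250 bases. GGGCGG was present in 71.4% of windows of close upstream neighbours, 66.7% of distant upstream neighbours and 53.2% of downstream neighbours, against 44.1% of all protein-coding windows. The TATA sequence TATAAA was present in 4.76%, 4.17% and 4.26% of these sets, against 11.2%. CCAAT was present in 36.5%, 37.5% and 51.1%, against 35.0%. The polyadenylation signal AATAAA was present in 12.7%, 20.8% and 6.38% against 14.9%, and the splice-donor-like GGTAAG in 3.17%, 4.17% and 12.8% against 7.16%. TATAAA was in 3, 1 and 2 windows of the neighbour sets and GGGCGG in 45, 16 and 25, and no difference from all protein-coding windows was tested. These are counts of letters, not binding sites, and islet-expressed genes were not compared separately. In 34 upstream cases among the 141 the transcript covered part of the 250 bases itself, as in the 4 printed windows.

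**Figure D2:**
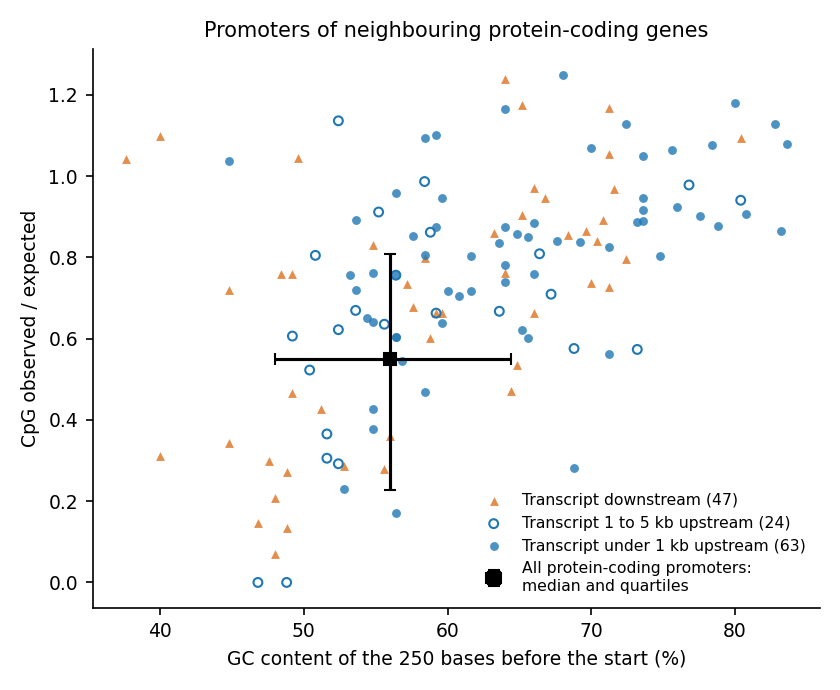
GC content in percent (x axis) and ratio of observed to expected CpG (y axis) of the 250 bases before the RefSeq start. There is 1 point per protein-coding neighbour and flank, and the median and quartiles of all protein-coding promoters are a square with bars. Most filled circles, for transcripts under 1 kb upstream, lie above and to the right of the square, with medians of 64.0% and 0.84 against 56.0% and 0.55.

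Levels were low and close in both flanks. Upstream, the median was 2.20 FPKM in NCD (quartiles 1.32 and 3.06) and 1.45 in HFD (0.93 and 2.18). Downstream it was 1.93 in NCD (0.95 and 3.35) and 1.42 in HFD (0.54 and 2.28). Over the whole table the medians were 2.53 and 1.42, so the flanks were below the table in NCD and at its level in HFD. Intronic transcripts had medians of 2.81 and 1.40, and those at least 5 kb from a gene 1.88 and 1.31.

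The highest level in the upstream flank was that of the interval at bases 15615 to 16179 of the mitochondrial chromosome, beside the proline tRNA gene mt-Tp, at 108 FPKM in NCD against 77.6 in HFD (log2 ratio -0.48). It lies in the control region, from which mitochondrial transcription starts. The mitochondrial chromosome was taken as linear, so a gene across its ends was not considered as a neighbour of this interval. The next highest levels were those of short intervals. Of these, the Abt1 transcript (204 bases) had 15.9 and 44.5 FPKM and overlapped n-TYgta3, a RefSeq tyrosine tRNA gene, and the Gm14421 transcript (293 bases) had 24.5 and 21.9. The Tab2 transcript (211 bases, beside an adaptor of inflammatory kinase signalling) and the Tnfsf10 transcript (224 bases, beside the gene of the death ligand TRAIL) were listed at 0 in NCD and had 44.3 and 25.5 FPKM in HFD. The Abt1, Tab2 and Tnfsf10 intervals were shorter than the estimated mean fragment, 295 bases in NCD and 288 in HFD. In HFD, 1 fragment was worth 0.0176 FPKM at 1000 bases and 0.377 at 300. Under 300 bases the number of fragments was not estimated, so how many lie behind these levels is not known.

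Downstream, the highest mean level was that of the Fbxo42 transcript (chr4:141206659-141210936), 2597 bases past the gene of an F-box substrate receptor of ubiquitin ligases. It had 9.20 FPKM in NCD against 18.7 in HFD. The Luc7l2 transcript (chr6:38613202-38613736), beside a splicing factor gene, had 15.8 in NCD and 6.26 in HFD. The Nrp1 transcript followed, then the Zfp931 transcript with 12.7 and 7.30 FPKM and the Gm10037 transcript with 8.05 and 10.1. None of these 5 was listed at 0, and all spanned more than 300 bases.

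**Figure D3:**
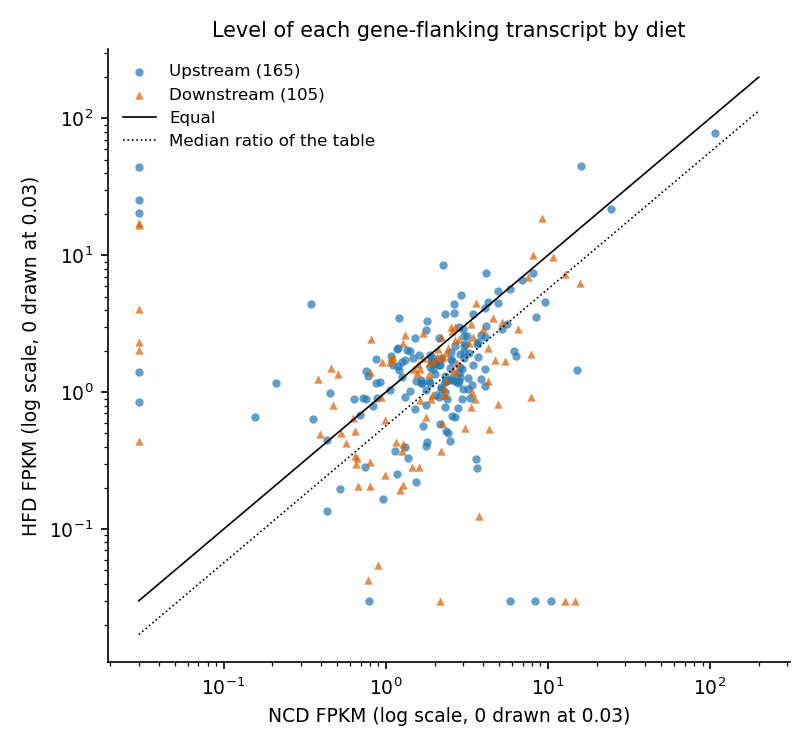
FPKM in NCD (x axis) against HFD (y axis), both on log scales with values of 0 drawn at the left or lower edge, 1 point per transcript of each flank; the solid line marks equal values and the dotted line the median ratio of the table. Points of both flanks overlap, and 190 of 270 lie below the line of equal values.

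Set against the diet, the flanking transcripts were lower in HFD by less than the table as a whole, in which 2054 of 3093 transcripts were intronic. The ratio used is log2 of (HFD + 0.1) over (NCD + 0.1), which understates changes at low levels. Its median was -0.47 upstream (quartiles -1.14 and 0.20), -0.43 downstream (-1.41 and 0.13) and -0.82 over all 3093 transcripts. The medians were -0.98 in introns, -0.41 over coding exons, -0.44 over non-coding exons and -0.30 at 5 kb or more. The flanks were therefore above the intronic transcripts, near the exonic ones and below those at 5 kb or more, so the smaller decrease was not particular to them.

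Of the 270, 190 were lower in HFD and 80 higher, where the background over the table was 80.0% lower and 20.0% higher. Past 2-fold, 51 of 165 upstream transcripts were lower (30.9%) and 11 higher (6.67%). Downstream, 37 of 105 were lower (35.2%) and 11 higher (10.5%). The background past 2-fold was 41.9% lower and 6.27% higher, so the share lower was under the background in both flanks. The share higher was near it upstream and above it downstream, where 6 of the 11 were listed at 0 in NCD. By position, 48.8% of intronic transcripts were 2-fold lower, 21.2% over coding exons, 26.4% over non-coding exons and 35.9% at 5 kb or more. The shares 2-fold higher were 4.43%, 6.52%, 7.77% and 19.3%. The share lower in the flanks was thus under that of introns and above those of exons.

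The direction depends on the scale of the columns, since the whole table was lower in HFD. When the columns were scaled so that the table's median log2 ratio was 0, the medians became 0.35 upstream and 0.38 downstream. Then 16 upstream transcripts were at least 2-fold lower and 42 higher, and 18 downstream transcripts were lower and 25 higher, against a background of 15.0% lower and 15.9% higher. Relative to the table, 102 of 165 upstream and 62 of 105 downstream transcripts lay above its median ratio, where the background is 50.0% above and 50.0% below by construction.

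The medians of the flanks differed by 0.04, which is small beside their quartiles. This closeness depended on which transcripts were taken. With the flank ended at 2000 bases the downstream median was lower by 0.30 (-0.80 against -0.49), from only 22 downstream transcripts. Without the transcripts that overlap a RefSeq gene it was lower by 0.34 (-0.79 against -0.45).

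**Figure D4:**
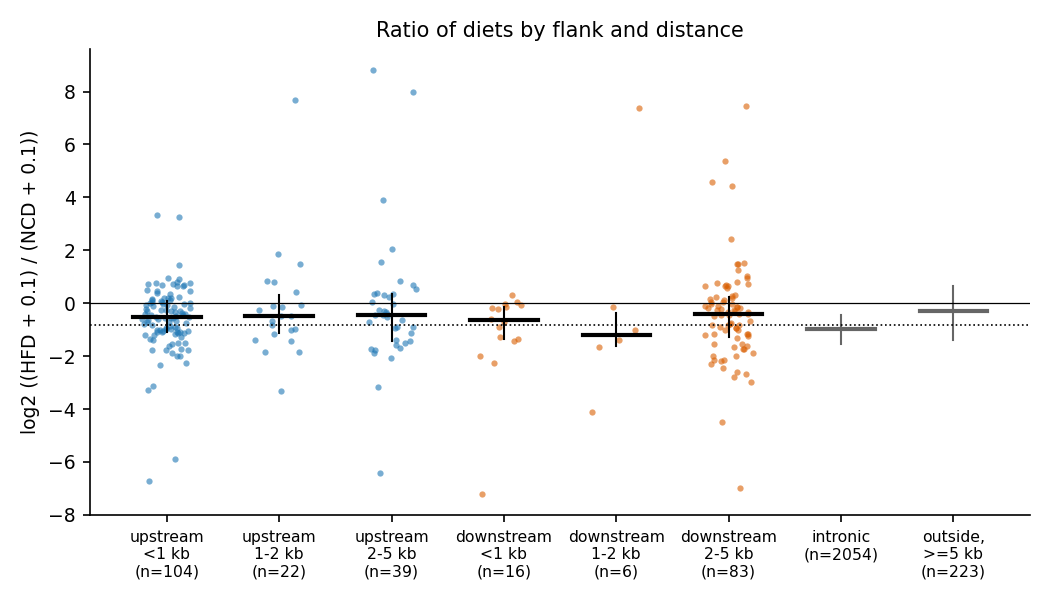
Log2 ratio of HFD over NCD (y axis, 0.1 added to each value), 1 point per transcript by flank and distance, with medians (thick bars) and quartiles (thin lines); intronic and farther intergenic transcripts are shown by median and quartiles alone, and the dotted line is the table's median. All flank medians but that of the 6 transcripts 1 to 2 kb downstream (-1.22) lie above the table's -0.82.

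The ratio was also described by distance. The upstream medians were -0.52 under 1000 bases, -0.47 from there to 2000 bases and -0.44 beyond. Downstream they were -0.64 (16 transcripts), -1.22 (6) and -0.39 (83). Finer 500-base bins varied more, upstream from -1.54 (4 transcripts) to 0.37 (9), and most of them held under 20 transcripts.

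The kind of neighbour went with a wider range. The nearest gene was protein-coding for 195 transcripts, a pseudogene for 28, a long non-coding gene for 27 and a small RNA or other gene for 20. The median ratio was -0.43 upstream of protein-coding genes (119) and -0.29 downstream of them (76). It was -1.42 downstream of long non-coding genes, where 9 of 10 transcripts were lower in HFD against a background of 80.0%, and -0.64 upstream of them (17). For pseudogenes it was -0.67 upstream (15) and -0.94 downstream (13), and for small RNA or other genes -0.61 upstream (14) and -0.08 downstream (6). The sets with 6 to 17 transcripts are small, and no difference between kinds was tested.

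In 48 cases a second gene lay under 5 kb on the other side. The median ratio was -0.44 between 2 gene starts (15), -0.84 between 2 gene ends (11) and -0.91 between an end and a start (22), against -0.42 for the 222 with 1 gene in reach. Between 2 ends, 10 of 11 were lower in HFD, near the background of 80.0%.

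RefSeq annotates genes where GENCODE M21 has none. Of the 270 intervals, 83 overlapped a RefSeq gene, 48 of them a protein-coding one and 30 a long non-coding one, and 28 overlapped the neighbour's own RefSeq model. The median ratio was -0.39 for these 83 and -0.58 for the other 187. The 11 downstream transcripts over RefSeq long non-coding genes had a median of 0.27. Of them 6 were higher in HFD, where 29.6% of the 270 and 20.0% of the table were, and this small set was not tested.

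Short intervals carried the most extreme values. The 17 transcripts under 300 bases had medians of 7.89 FPKM in NCD and 6.58 in HFD, and 7 of them were at least 2-fold lower and 7 higher. Of all 199 transcripts of the table under 300 bases, 95 were at least 2-fold lower and 51 higher. Of the 18 transcripts listed at 0 in 1 group, 11 in NCD and 7 in HFD, 9 were under 300 bases and 12 under 400. Medians were -0.66 for spans of 300 to under 1000 bases (146), -0.39 from there to under 5000 (76) and -0.27 for 5000 or more (31). Across the table the same span classes had -1.04, -0.72 and -0.54.

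FPKM values of low transcripts moved in steps, from which the number of fragments behind a value was estimated for spans of 300 to 1000 bases, taking the interval as unspliced. In low values held out of the fit, 73 of 84 in NCD (86.9%) and 129 of 129 in HFD (100%) came out within 0.15 of a whole fragment, where chance gives 30%. The estimated totals were 65500000 fragments in NCD and 79600000 in HFD. At 400 bases, 1 fragment is worth 0.142 FPKM in NCD and 0.110 in HFD. Median estimates per transcript were 33.1 fragments in NCD and 24.4 in HFD upstream, and 37.8 and 26.4 downstream. Of 146 transcripts with an estimate, the 95% counting interval of the ratio lay below 0 in 67, above 0 in 16 and included 0 in 63. Over all 1598 transcripts of the table with an estimate, 60.8% of intervals lay below 0 and 5.38% above. Set against the table's median ratio, the intervals of the 146 lay below it in 29, above it in 48 and included it in 69, where the background was 27.2% below and 16.5% above. These Clopper-Pearson intervals cover counting error only, not the spread between mice. They rest on fragment counts without the added 0.1, whereas the table's median ratio includes it. The side of 0 is not affected by this, but calls for intervals that end near the table's median are uncertain.

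The upstream transcripts with the highest ratios, among those listed above 0 in both diets and at least 400 bases long (132 transcripts), lay beside coding genes of varied function and predicted genes. The Lin7a transcript (chr10:107266774-107269021), 2665 bases before the gene of a scaffold protein of cell junctions and synapses, had 0.211 FPKM in NCD against 1.18 in HFD (log2 ratio 2.04). The Gm20484 transcript had 0.156 and 0.660 FPKM (1.57), and the Gm23144 transcript 0.454 and 0.979 (0.96). Of these 3, Lin7a and Gm20484 were past 2-fold.

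The Dock9 transcript (chr14:121798005-121798832), 168 bases before an exchange factor gene for the GTPase Cdc42, had 0.874 FPKM in NCD and 1.75 in HFD. Its ratio was 0.93, with a counting interval from 0.35 to 1.63 and about 30.5 and 75.5 fragments. The Prkrip1 transcript (chr5:136199030-136199439), printed above, had 2.91 and 5.16 FPKM (0.80, counting interval 0.10 to 1.64). An intronic transcript of the table inside Prkrip1 was in contrast lower in HFD, with 4.10 and 1.79 FPKM. The counting intervals of Dock9 and Prkrip1 lay above 0, and that of Gm23144 (-0.20 to 2.61) included it. All were picked for high ratios, so these intervals are no separate support.

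The lowest ratios of the upstream flank went farther from 0. The Gm12148 transcript had 3.63 FPKM in NCD against 0.327 in HFD (log2 ratio -3.13, counting interval -5.17 to -2.14). The Trbv21 transcript, over the T cell receptor beta locus in RefSeq, had 1.55 and 0.223 FPKM (-2.35). The Nudc transcript (chr4:133546210-133546890) had 2.48 and 0.444 FPKM (-2.25), from about 62.9 and 13.9 fragments. These 3 were lower in HFD by far more than the table's median of -0.82, which follows from their choice by ratio.

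The Gm10865 transcript had 0.965 FPKM in NCD and 0.165 in HFD (-2.01). The Cebpd transcript (chr16:15885890-15886345), 941 bases before the gene of a C/EBP transcription factor of inflammatory responses, had 2.37 and 0.518 FPKM (counting interval of the log2 ratio -3.63 to -0.93). The Lmna transcript (chr3:88510221-88511001), 265 bases before the gene of the nuclear lamins A and C, had 1.77 and 0.405 FPKM (-1.89). A transcript over coding exons of Lmna in the same table was also lower in HFD, at 1.48 and 0.739 FPKM. For Gm12148, Nudc, Gm10865, Cebpd and Lmna the whole counting interval lay below the table's median ratio. That median includes the added 0.1 and the intervals do not, and the upper end for Cebpd, -0.93, lay close to it. These transcripts were picked for the lowest ratios among the 132, so intervals from the same values lie low largely by that choice. They are no separate support.

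Downstream, the highest ratios among 85 transcripts under the same limits began with Prrg4. The Prrg4 transcript (chr2:104827327-104827753), beside a gene of a membrane protein with a Gla domain, had 0.458 FPKM in NCD and 1.52 in HFD (1.53, counting interval 0.12 to 3.76). The Gm9299 transcript had 0.384 and 1.25 FPKM (1.48), and the Gm22195 transcript, 7720 bases long, 0.815 and 2.45 (1.48). The Prrg4 value rested on about 4 fragments in NCD, and its interval was wide.

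The Pggt1b transcript, beside a subunit gene of a protein prenyl transferase, had 0.506 and 1.36 FPKM (1.27). The Fbxo42 transcript, with 9.20 and 18.7 FPKM (1.02), was the only one of these 6 that was also among the 5 highest levels of its flank. The Igip transcript, beside a gene of an IgA-inducing peptide, had 1.28 and 2.28 FPKM (0.79). Of the 6, all but Igip were past 2-fold.

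The lowest downstream ratio was that of Hspa8, the constitutive heat shock cognate chaperone and the only gene with a transcript on both flanks. Its downstream transcript (chr9:40811968-40816998) spanned 5031 bases from 1881 bases past the gene, with 3.76 FPKM in NCD and 0.125 in HFD (-4.10). Its upstream transcript (chr9:40800358-40800819), 165 bases before the start, had 1.11 FPKM in NCD and 1.57 in HFD (0.47, counting interval -0.54 to 1.68). The 2 flanks of this gene thus pointed in opposite directions, and only the downstream value was past 2-fold.

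The other low downstream ratios lay beside 3 coding genes and 2 predicted long non-coding genes. The Krt23 transcript (chr11:99474913-99475786), beside a keratin gene, had 0.774 FPKM in NCD and 0.0425 in HFD, about 29.4 and 1.99 fragments (counting interval -7.27 to -2.17). The Gm49312 transcript had 0.895 and 0.0549 FPKM, the latter about 1 fragment (-9.44 to -1.29), and the Gm31557 transcript 4.92 and 0.817 FPKM (-2.45). The HFD values of Krt23 and Gm49312 thus rested on about 2 fragments and 1 fragment.

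The Shroom3 transcript (chr5:92967936-92968589), beside a gene of an actin-binding protein of epithelial shape, had 3.09 FPKM in NCD and 0.545 in HFD (-2.30, counting interval -3.38 to -1.71). An intronic transcript inside Shroom3 had 5.66 and 2.95 FPKM (-0.92), so both were lower in HFD. The Acot13 transcript (chr13:24816873-24817461), beside an acyl-CoA thioesterase gene, had 2.18 and 0.373 FPKM (-2.27).

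**Figure D5:**
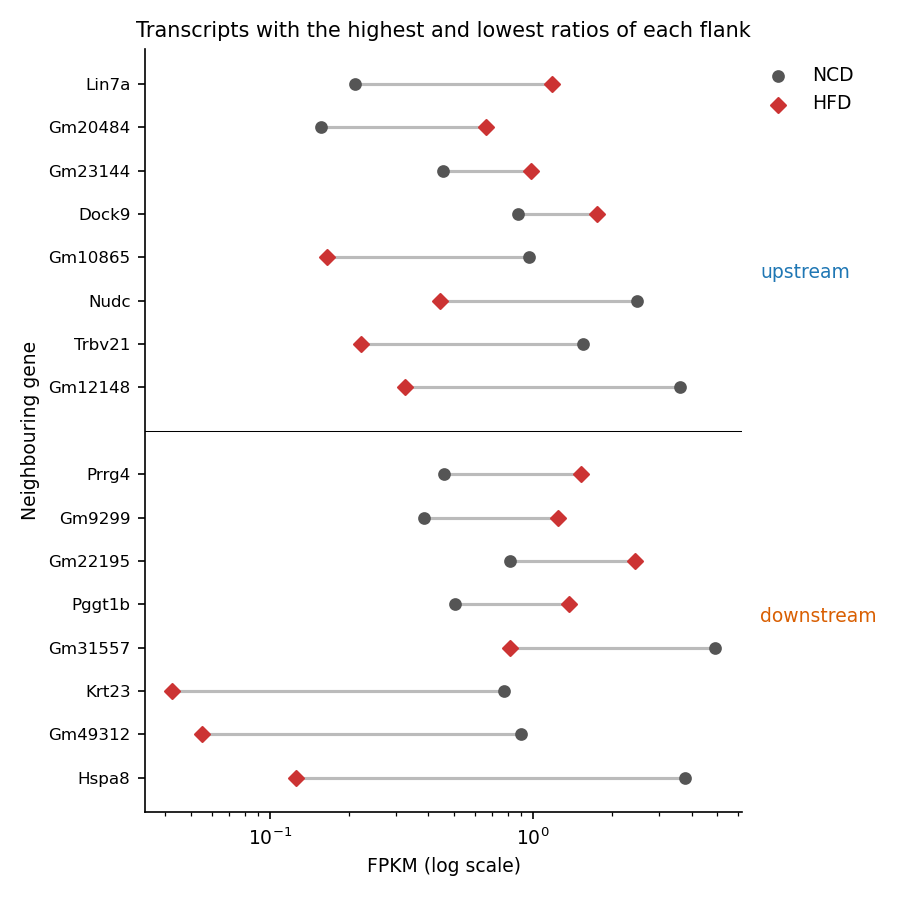
FPKM in NCD (circles) and HFD (diamonds) on a log scale for the 4 highest and 4 lowest ratios of each flank, listed by neighbouring gene. The Hspa8 downstream transcript has the widest gap, from 3.76 to 0.125, and the Gm31557 transcript the highest level, 4.92 in NCD.

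Genes of the lists used here rarely had a transcript in their flank. Over the whole annotation only 261 genes were neighbours of a flanking transcript, so short lists would hold few or none. The empty lists are therefore no finding about islet genes, and no difference from all genes was tested. Of 12 gene lists, 9 had none, among them the other endocrine cells, acinar, duct, endothelial, stromal, immune and neuron and glia lists and those of lipid and glucose metabolism and chromatin. The beta cell list of 47 genes had 1, the Isl1 downstream transcript (chr13:116294593-116296244), 2037 bases past this endocrine transcription factor gene. It had 1.27 FPKM in NCD against 0.374 in HFD (-1.53), and a transcript over coding exons of Isl1 had 7.65 and 3.15. Both were lower in HFD.

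The stress and early response list of 30 genes had 4 transcripts, 2 higher and 2 lower in HFD, with a median ratio of -0.34. Among all flanking transcripts 29.6% were higher. Beside the 2 of Hspa8, the Xbp1 upstream transcript (chr11:5516628-5517838), near the gene of the unfolded protein response factor, had 0.875 FPKM in NCD and 1.16 in HFD (0.37). The Sdf2l1 upstream transcript (chr16:17132586-17133567) had 0.521 and 0.198 (-1.06, counting interval -2.55 to -0.27). The cell cycle list had 1, the Cdkn2a upstream transcript (chr4:89294913-89296906), with 0.356 and 0.639 FPKM (0.70), over the RefSeq gene Gm12610. These lists showed no common direction.

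Among neighbours grouped after their values were seen, 8 work in protein folding and quality control of the endoplasmic reticulum. Their transcripts were higher in HFD in 4 and lower in 4, with a median ratio of 0.04. Over all 270 flanking transcripts 29.6% were higher and the median was -0.47, and 20.0% of the table was higher. The group was picked with its values in view, and its difference from these shares was not tested. Those of Mlec (0.952 and 1.66 FPKM, 0.75) and Derl3 (1.08 and 1.85 FPKM, 0.73), a lectin and a degradation factor of that compartment, were highest. Those of Sdf2l1 and of Creld2, a secreted stress protein (1.23 and 0.192 FPKM, -2.19), were lowest. The members of this group thus lay on both sides of 0.

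Beside 18 transcription factor genes lay 19 transcripts, 8 higher and 11 lower in HFD, with a median of -0.04. The share higher over all flanking transcripts was 29.6%. Past 2-fold, 5 were lower and 0 higher, where the background was 41.9% lower and 6.27% higher. The 5 were those of Cebpd, Klf6 (2.55 and 0.671 FPKM, -1.78), Isl1, Bcl6 (3.41 and 1.13 FPKM, -1.51) and Dach1 (3.46 and 1.59 FPKM, -1.08). The highest were those of Crem (1.11 and 1.80 FPKM, 0.65) and Atf1 (2.64 and 3.82, 0.52), both of the cAMP-responsive family. This group and the next were picked with their values in view, and no difference from these shares was tested. The transcription factor group left out the zinc finger neighbours Zfp263 (-1.89), Zfp62 (-1.85), Zfp212 (-1.43) and Zfp119a (-1.19), all past 2-fold lower. Other neighbours named Zfp were higher in HFD, such as Zfp810 (0.30) and Zfp971 (0.03). For 7 genes of translation, 2 transcripts were higher and 5 lower, with a median of -0.13, beside the same 29.6% higher over all flanking transcripts. The highest of these, that of Eif3l, was 323 bases long and rested on about 0.99 fragments in NCD and 16.9 in HFD.

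The 3 microRNA neighbours differed. The Mir222 upstream transcript (chrX:19147397-19147880), 426 bases before the gene, had 6.35 FPKM in NCD and 1.85 in HFD (-1.73, counting interval -2.45 to -1.15). The Mir34a upstream transcript (chr4:150064277-150064611), at 3843 bases, had 1.80 and 3.31 FPKM (0.85, counting interval -0.55 to 2.55). The Mir148a upstream transcript (chr6:51271748-51272241), at 1838 bases, had 0.839 and 0.787 FPKM (-0.08, -1.37 to 1.21). Only the Mir222 interval lay away from 0. miR-222 and miR-34a are known regulators of cell cycle genes and miR-148a is abundant in many tissues.

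In 3 loci the table listed 2 overlapping transcripts in the flank under 1 locus identifier. At Prep, a peptidase gene, they had 0.433 and 0.451 FPKM (NCD and HFD) and 3.03 and 2.55. At Gm43067 they had 0.640 and 0.893, and 2.66 and 2.18. At Tcaf3 both were listed at 0 in NCD and had 0.439 and 2.31 FPKM in HFD, although their intervals differed by 1 base at the start. In the first 2 loci the 2 transcripts differed in the sign of a ratio that was under 2-fold, and such overlapping intervals share their source.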

How the data were processed

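Total RNA of islets from 6 C57BL/6 samples, 3 per diet per the labels, was made into Illumina TruSeq libraries, and no sample has a value of its own here. The authors deposited 1 FPKM value per transcript and diet, per the file headers. The submitters' processing notes name GRCm38 and mm10. Of the aligner, assembler, quantifier, transcript filters and the way 3 libraries gave 1 value, the sources used here give none.

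Intervals were placed against GENCODE M21 genes of any type and against RefSeq genes and promoters (GRCm38.p6, the same build) with Python 3.11.15, pandas 2.3.3, numpy 2.4.6 and scipy 1.17.1. The ratio was log2((HFD + 0.1)/(NCD + 0.1)), with no filter on low values. With 1 value per group, differences were described by size (2-fold), and no test was made. Placement and the fragment estimates were tested on simulated data. Fragment totals and fragment lengths were fitted to spans of 300 to 700 bases and values of up to 8 fragments, assuming 1 pool per diet. Under 300 bases only 46.3% and 33.7% of low values were whole, so none are given there.

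Named transcripts were, per flank, the 5 highest mean levels, the 6 highest and 6 lowest ratios above 0 in both groups at 400 bases or more, the 3 nearest, all list members, the limits and loci with several transcripts. The result of 1 of these is not reported here. Any other transcript named, and the groups by function, were picked with their values in view. The members and lists were chosen with earlier results of these data known. The planned base composition and motifs of each interval were not run for lack of the genome sequence. Promoter windows replaced them, and GGGCGG and CCAAT were added then. Alternatives changed the pseudocount, scaling, fold, distance, span and annotation.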

Additional observations from a re-analysis of the deposited data

How the results depend on the processing

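No paired analysis was possible because each diet has a single deposited column. Libraries could therefore not be dropped in turn, and the planned replicate block was not run. Median centring turned the median log2 ratios to 0.35 upstream and 0.38 downstream, with 16 upstream transcripts at least 2-fold lower and 42 higher, and 18 and 25 downstream. Quantile normalization gave 0.33 and 0.42, with 16 and 43 upstream and 18 and 26 downstream. Both scalings set the 2 columns to a common centre. Median centring moves every ratio up by the same amount, whereas quantile normalization shifts values by rank and need not raise each ratio. A pseudocount of 1 left 23 upstream and 19 downstream transcripts 2-fold lower and 5 downstream 2-fold higher. A 4-fold rule kept 11 lower and 7 higher upstream, and 14 and 6 downstream. A flank of under 10000 bases held 18 upstream and 18 downstream transcripts 2-fold higher. A flank of under 2000 bases held 6 upstream 2-fold higher, and 10 lower and 1 higher downstream, and turned the downstream minus upstream difference of medians from 0.04 to -0.30. Leaving out transcripts over RefSeq genes, chosen after seeing the data, turned it to -0.34, and the cause was not tested. Spans of at least 400 bases left 4 upstream transcripts 2-fold higher. Without transcripts listed at 0, 6 upstream and 5 downstream were 2-fold higher. Over all 3093 transcripts, 41.9% were 2-fold lower and 6.27% higher as deposited, and 15.0% and 15.9% after median centring. For the other settings no share over the whole table is given here. Their counts thus show how the calls move and not a difference from the table. Of 50 named transcripts, 0 that were past 2-fold changed sign under either pseudocount or either scaling. A pseudocount cannot change a sign, and median centring cannot turn a 2-fold lower value positive, so this was largely fixed in advance. Among those under 2-fold, 8 changed sign with median centring and 7 with quantile normalization. Under each scaling 10 came past 2-fold and 4 were no longer past it. With a pseudocount of 1, 15 were no longer past 2-fold. Depth limits low values most: at 400 bases, 1 fragment is worth 0.142 FPKM in NCD and 0.110 in HFD.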

Other observations

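Flanking transcripts of different loci identifiers that lay within 10 kb of each other formed 11 pairs, 1 of them overlapping, of which 7 had the same direction and 4 opposite ones. Since 190 of the 270 flanking transcripts were lower in HFD, unrelated pairs would often share a direction too. The count is therefore no finding about neighbouring transcripts, and it was not tested. The widest split was between Rsad1 and Acsf2. The Rsad1 upstream transcript was listed at 0 in NCD and had 0.855 FPKM in HFD. The Acsf2 downstream transcript, 271 bases long, had 12.7 FPKM in NCD and was listed at 0 in HFD. Its span is too short for an estimate of fragments. The Creld2 downstream and Gm23144 upstream transcripts, 3638 bases apart, had log2 ratios of -2.19 and 0.96. The 2 transcripts near Pabpc5, a gene of a poly(A)-binding protein on the X chromosome, both had higher values in HFD, 1.69 and 2.69 FPKM (NCD and HFD) for the first and 1.08 and 1.77 for the second. The 2 near Gm49312 both had lower ones, with log2 ratios of -2.68 and -1.55.

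For 29 flanking transcripts the neighbour gene itself held another transcript of the table, which gave 41 pairs, and 25 of these had the same direction. Of the 41 transcripts inside the genes 38 were lower in HFD, as was 80.0% of the table. With most values lower, unrelated pairs would often share a direction as well, and this was not tested. At Stxbp5l, a gene linked to vesicle exocytosis, the downstream transcript had 5.45 FPKM in NCD and 1.70 in HFD, and 2 intronic transcripts had 2.42 and 0.644 and 2.67 and 0.209 FPKM. At Crem the downstream transcript had 1.11 and 1.80 FPKM, and 2 intronic transcripts had 1.65 and 1.05 and 2.20 and 1.10 FPKM. At Ttc39a the downstream transcript had 2.29 and 1.07 FPKM, and a transcript over coding exons had 2.57 and 3.49. These values come from the same 2 columns and are not independent of each other.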
